A study of Mus musculus with 8 samples.

Results

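The canonical Wnt effectors and feedback genes were followed as 10 genes chosen by symbol: Lrp5, Lrp6, Axin1, Axin2, Ctnnb1, Bcl9, Lef1, Tcf7, Tcf7l1 and Tcf7l2. All 10 had counts in the brain table of 14496 protein-coding genes, and 8 were listed in the table of 9217 genes for mouse embryonic stem cells (mESC). Lef1 and Tcf7 were not analysed in mESC. The mESC values are listed by peak entries of a second assay, described below, so absence there does not show that a gene is not expressed. RNA-seq was available from 6 embryonic mouse brain libraries and 2 mESC libraries. The 3 NTD (neural tube defect) libraries came from embryos of dams that ate a low folate diet and received 1.5 mg/kg methotrexate, a folate antagonist, by intraperitoneal injection on gestational day 7.5. These embryos were looked at between day 9.5 and 10.5, and the labels describe them as small and delayed, with malformed hindbrain or spina bifida. The 3 control libraries came from embryos with closed neural tubes after normal saline. The labels do not state what the control dams ate, so the drug, the diet, the defect and the delay cannot be told apart. The labels do not say whether libraries of a group came from separate litters or pools of embryos, so the p-values measure the spread between these libraries, which may be technical. The mESC libraries, 1 per group, came from sv129 cells grown in folate-free medium (FA0) or in the same medium with 4 mg/L folic acid (FA4).

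In canonical Wnt signalling a secreted Wnt protein binds a Frizzled receptor together with the co-receptor LRP5 or LRP6. A cytoplasmic complex built on AXIN1 or AXIN2 otherwise marks β-catenin, the product of Ctnnb1, for destruction. Stabilised β-catenin enters the nucleus, joins the TCF/LEF DNA-binding proteins and recruits BCL9 as a coactivator. Axin2 and Lef1 are themselves transcribed in response to the pathway, and Axin2 closes a negative feedback loop. In the embryo the pathway patterns the posterior body axis and the dorsal neural tube, and mouse mutants of Lrp6 and Axin1 have neural tube defects.

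Promoter windows are shown first because TCF/LEF proteins act through short DNA letters and Axin2 and Lef1 are feedback targets. RefSeq promoter sequences of build GRCm38.p6 matched 7 of the 10 genes (not Axin1, Lrp5 or Lrp6) with 13 annotated starts. The 250 bases before each start were searched on both strands for the core TCF/LEF letters CTTTGAA and the variant CTTTGAT, and for the further variants CTTTGTA and also CTTTGTT, which exclude one another at a position. A match was present in 2 of the 13 windows, and in 14.8% of 32851 windows of the same length over all genes. The 13 are not all separate stretches, because the windows of both Ctnnb1 starts overlap, as do those of the first 2 Lef1 starts. The Axin2 window (chr11:108920099-108920348, + strand), which ends at the gene start, is the feedback gene's own window and held none of the 4 words. The Lef1 window at the first annotated start (chr3:131110047-131110296, + strand) held none either. The matches lay at internal starts of Lef1 (chr3:131156044-131156293, + strand) and Tcf7l2 (chr19:55895071-55895320, + strand), both in introns of the annotated gene. Capitals mark the match, which in Lef1 is CTTTGTA read on the other strand.
Axin2: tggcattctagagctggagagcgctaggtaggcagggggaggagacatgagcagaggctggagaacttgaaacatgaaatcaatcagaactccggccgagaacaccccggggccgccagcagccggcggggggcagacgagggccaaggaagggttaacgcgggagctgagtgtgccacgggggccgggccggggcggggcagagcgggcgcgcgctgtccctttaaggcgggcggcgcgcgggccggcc
Lef1, first start: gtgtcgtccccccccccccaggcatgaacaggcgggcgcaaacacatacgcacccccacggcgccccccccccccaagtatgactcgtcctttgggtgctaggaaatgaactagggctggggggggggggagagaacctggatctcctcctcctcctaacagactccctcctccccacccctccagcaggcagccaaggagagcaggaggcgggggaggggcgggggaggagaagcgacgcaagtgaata
Lef1, internal start: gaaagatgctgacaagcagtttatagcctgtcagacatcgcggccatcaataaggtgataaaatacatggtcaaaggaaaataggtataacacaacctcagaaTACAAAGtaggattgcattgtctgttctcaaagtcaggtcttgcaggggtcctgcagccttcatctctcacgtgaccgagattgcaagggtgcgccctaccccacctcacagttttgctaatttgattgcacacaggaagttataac
Tcf7l2, internal start: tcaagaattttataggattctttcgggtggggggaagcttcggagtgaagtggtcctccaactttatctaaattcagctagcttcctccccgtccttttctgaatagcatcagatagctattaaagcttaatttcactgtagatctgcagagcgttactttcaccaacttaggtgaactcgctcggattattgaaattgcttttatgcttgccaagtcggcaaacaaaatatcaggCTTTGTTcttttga
A match is a description of letters and shows no binding, and a window without one says nothing about the factor elsewhere.

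Brain libraries held 17335564 to 26788304 counts in the table. Across 11626 tested genes, log2 CPM (counts scaled to library size, log scale) of control 2 and control 3 correlated at 0.910, whereas control 1 correlated with them at 0.775 and 0.760 and the NTD libraries with one another at 0.718 to 0.749. Control 1 and NTD 3 stood apart from the other 4 libraries on the second principal component, so member values are also given without both. Of 6440 genes averaging at least 500 counts, 99 were at 3 counts or fewer in control 1, 35 in control 2 and in NTD 3, and 8 to 18 in the others. The neuron markers had a summed level of 3811 to 5108 CPM in controls and 751 to 837 CPM in NTD. All 8 were called lower (edgeR adjusted p under 0.05). The 7 neural progenitor markers summed to 687 to 799 CPM in controls and 230 to 340 CPM in NTD, with 2 (Hes5 and Fabp7) called lower and 6 of 7 fitted fold changes negative. Within that list Sox2 (at most 6.94 CPM) and Pax6 (at most 8.48 CPM) were low in every library of both groups, and the other 5 stood at 23.3 CPM or more. Trophoblast markers summed to 1.53 to 3.03 CPM in controls and 1238 to 1901 CPM in NTD, with 6 of 8 called higher and Tpbpa at 0 in every control. Yolk sac endoderm markers summed to 213 to 593 CPM in controls and 12686 to 14977 CPM in NTD (5 of 11 called higher), and epithelial markers to 89.9 to 110 CPM and 1399 to 1589 CPM (4 of 5 called higher). The marker levels moved with the groups, and their part in the results on Wnt genes was not tested.

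None of the 10 genes differed between NTD and control brain at the threshold, an adjusted p under 0.05 from edgeR's quasi-likelihood test with Benjamini-Hochberg adjustment over all 11626 tested genes. The same test called 2.89% of all tested genes. DESeq2 and limma-voom also called 0 of the 10. At an unadjusted p under 0.05 there were 2 of 10, Bcl9 and Tcf7, against 15.0% of all tested genes. In 3 of 10 genes the groups did not overlap (Bcl9 and Ctnnb1 with NTD below, Tcf7 with NTD above), against 24.5% of all tested genes. Fitted log2 fold changes (NTD over control) were positive for 5 and negative for 5, with a median of -0.04 beside -0.01 over all tested genes. In these bulk samples fewer cells of a type and less RNA per cell cannot be told apart.

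**Figure D1:**
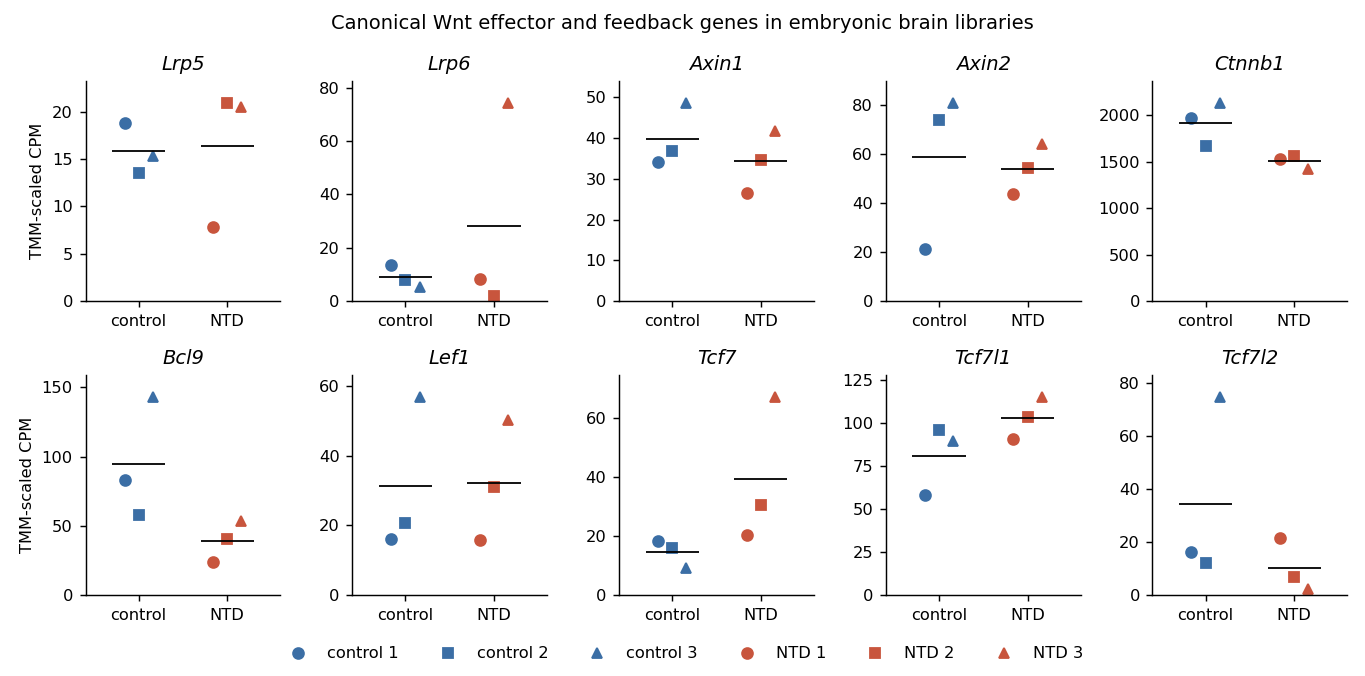
CPM of the 10 genes, 1 panel each with its own linear axis from 0, in the 3 control and 3 NTD brain libraries (marker shape gives the replicate number), with a line at each group mean. NTD 3 alone is high for Lrp6 (74.2 CPM) and control 3 alone for Tcf7l2 (74.8 CPM), while Ctnnb1 is tight in both groups.

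Per kb of merged exons, the co-receptors had the lowest mean levels of the 10 genes in controls. Lrp5 (chromosome 19, 3584828 to 3686564, minus strand, GRCm38 as for all positions here) stood at 18.8, 13.5 and 15.3 CPM in controls 1 to 3 and at 7.85, 20.9 and 20.4 CPM in NTD 1 to 3. The groups overlapped, with means of 15.9 ± 2.65 and 16.4 ± 7.41 CPM (SD, n = 3 each). Its log2 fold change was 0.05 ± 0.77 (SE, edgeR adjusted p = 0.989), and the 95% interval ran from -1.68 to 1.77. Lrp6 (chromosome 6, 134446476 to 134566965, minus strand), the co-receptor whose loss in mice disturbs neural tube closure, stood at 13.5, 8.04 and 5.38 CPM in controls and 8.28, 1.86 and 74.2 CPM in NTD. A single library, NTD 3, was high, and NTD 2 was the lowest of all 6. The log2 fold change was 1.65 ± 1.19 (SE, interval -1.02 to 4.31, edgeR adjusted p = 0.631). Without NTD 3 it was -0.88, so the direction of Lrp6 rested on that library. Without control 1 and NTD 3 together, Lrp5 was at -0.01 and Lrp6 at -0.41.

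The AXIN scaffolds, which hold the β-catenin destruction complex together, were close between the groups in their means. Axin1 (chromosome 17, 26138688 to 26195811, plus strand) measured 34.0, 36.8 and 48.5 CPM in controls and 26.5, 34.6 and 41.7 CPM in NTD. Its log2 fold change of -0.22 ± 0.44 (SE, interval -1.20 to 0.77) had an edgeR adjusted p of 0.915. Axin2 (chromosome 11, 108920349 to 108950783, plus strand), the feedback gene and a common readout of canonical signalling, measured 21.4, 73.7 and 80.7 CPM in controls and 43.8, 54.1 and 64.0 CPM in NTD. Control 1 was lowest, controls 2 and 3 were highest, and all NTD libraries lay between. The log2 fold change was -0.12 ± 0.50 (SE, interval -1.24 to 1.00, edgeR adjusted p = 0.963). Leaving out 1 library at a time moved it between -0.51 (without control 1) and 0.18 (without control 3). Without control 1 and NTD 3 together, Axin1 was at -0.49 and Axin2 at -0.66 (edgeR adjusted p = 0.637 and 0.353). The small difference in Axin2 means thus rested in part on the low control 1. The log2 ratio of Axin2 to Axin1 counts within a library was -0.66, 1.00 and 0.73 in controls and 0.73, 0.64 and 0.62 in NTD. It differed by 0.31 on average (exact two-sided permutation test, p = 1.00, where 3 against 3 cannot go below 0.1).

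Ctnnb1 (chromosome 9, 120929216 to 120960507, plus strand), which encodes β-catenin of both the Wnt pathway and the cell junction, was the steadiest of the 10. It measured 1967, 1666 and 2132 CPM in controls and 1528, 1567 and 1422 CPM in NTD. Every NTD library lay below every control, with means of 1922 ± 236 and 1505 ± 74.6 CPM (SD, n = 3 each). The log2 fold change was -0.35 ± 0.17 (SE, interval -0.73 to 0.03) and did not pass, with an edgeR adjusted p of 0.380. The SD of its log2 CPM within groups was 0.138, lower than in all but 2.21% of 7775 genes of moderate or high level, whose median SD was 0.536. Leaving out 1 library at a time kept the log2 fold change between -0.47 and -0.27, and without control 1 and NTD 3 together it was -0.30.

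Bcl9 (chromosome 3, 97203662 to 97297917, minus strand), the coactivator that bridges β-catenin to PYGO proteins, had the lowest p of the 10. It measured 83.2, 57.8 and 143 CPM in controls and 23.9, 40.2 and 53.8 CPM in NTD. The groups did not overlap, although control 2 and NTD 3 were close. The means were 94.7 ± 43.8 and 39.3 ± 15.0 CPM (SD, n = 3 each). The log2 fold change was -1.27 ± 0.45 (SE, interval -2.28 to -0.26), with an edgeR adjusted p of 0.202. Over all alternative settings the lowest adjusted p of any of the 10 genes was 0.105, for Bcl9 in DESeq2. Without any 1 library the log2 fold change stayed between -1.68 and -0.85, and without control 1 and NTD 3 together it was -1.66.

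**Figure D2:**
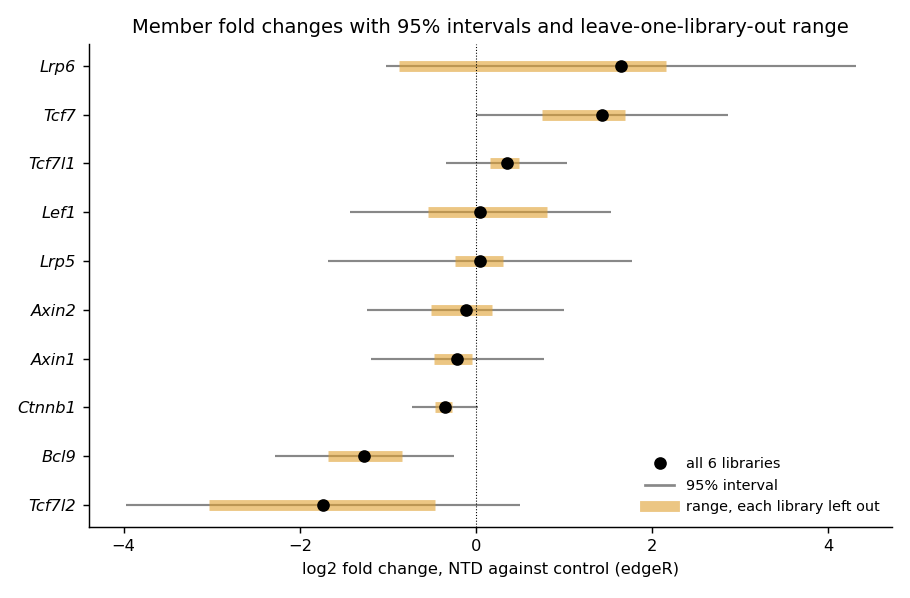
Log2 fold change, NTD over control brain, of the 10 genes from edgeR (points), with the 95% interval (thin line, 3 libraries a group) and the range when each library in turn is left out (thick bar). The thick bar crosses 0 for Lrp6, Lef1, Lrp5 and Axin2 and stays to one side for the other 6.

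The 4 TCF/LEF genes went in different directions, and none was called. Lef1 (chromosome 3, 131110471 to 131224356, plus strand), an activating factor and feedback target, measured 16.2, 20.6 and 56.9 CPM in controls and 15.7, 31.1 and 50.1 CPM in NTD. Each group covered nearly the same range. Its log2 fold change was 0.05 ± 0.66 (SE, interval -1.43 to 1.53, edgeR adjusted p = 0.987), and it moved between -0.55 (without NTD 3) and 0.81 (without control 3) when 1 library was left out. Without control 1 and NTD 3 it was -0.74.

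Tcf7 (chromosome 11, 52252371 to 52283014, minus strand), the gene for TCF1, was the only TCF/LEF gene of the 4 whose groups did not overlap. It measured 18.5, 16.1 and 9.13 CPM in controls and 20.5, 30.3 and 67.0 CPM in NTD. NTD 1 was close to control 1, and NTD 3 was the highest. The means were 14.6 ± 4.84 and 39.3 ± 24.5 CPM (SD, n = 3 each), with a log2 fold change of 1.43 ± 0.64 (SE, interval 0.00 to 2.86, edgeR adjusted p = 0.332). Without NTD 3 the log2 fold change was 0.75, and without control 1 and NTD 3 together it was 1.00.

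Tcf7l1 (chromosome 6, 72626378 to 72789254, minus strand), the gene for TCF3, which mainly represses targets, measured 57.9, 95.9 and 89.2 CPM in controls and 90.6, 103 and 115 CPM in NTD. Only NTD 1 fell inside the control range. The log2 fold change was 0.35 ± 0.31 (SE, interval -0.34 to 1.03, edgeR adjusted p = 0.723). Tcf7l2 (chromosome 19, 55741820 to 55933654, plus strand), the gene for TCF4, measured 16.2, 12.1 and 74.8 CPM in controls and 21.4, 7.02 and 2.28 CPM in NTD. Control 3 was far above the other 5 libraries, and the highest library was 32.7 times the lowest. Its log2 fold change was -1.74 ± 1.00 (SE, interval -3.98 to 0.49, edgeR adjusted p = 0.493). It was -0.47 without control 3 and -3.03 without NTD 1, the range over all libraries left out in turn. Without control 1 and NTD 3 together, Tcf7l1 was at 0.06 and Tcf7l2 at -1.62.

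Per kb of merged exons, Tcf7l1 supplied most of the summed TCF/LEF level in 5 of 6 libraries. The merged exons span 3.924 kb for Tcf7l1, 2.625 kb for Tcf7, 8.788 kb for Lef1 and 8.775 kb for Tcf7l2. They can be longer than the transcripts in use, so the shares depend on the length chosen. The share of Tcf7l1 was 57.9, 71.3 and 55.2% in controls and 65.7, 62.3 and 48.2% in NTD (exact permutation p = 0.8). The share of Tcf7 was 27.6, 17.9 and 8.44% in controls and 22.2, 27.4 and 42.0% in NTD, so the groups overlapped (exact permutation p = 0.3). Lef1 held 7.23, 6.83 and 15.7% in controls and 5.09, 8.38 and 9.38% in NTD (exact permutation p = 0.7). Tcf7l2 held 7.26, 4.02 and 20.7% in controls and 6.96, 1.9 and 0.428% in NTD (exact permutation p = 0.2). As log2 count ratios to Tcf7l1, Tcf7 differed by 0.94 and Tcf7l2 by -2.18 (NTD minus control). With 1 library left out, the Tcf7 value ran from 0.55 (without NTD 3, and also without control 3) to 1.37 (without control 1). The Tcf7l2 value ran from -3.07 (without NTD 1) to -1.29 (without NTD 3). Over the 5 within-library ratios tested, the lowest adjusted p was 0.75.

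**Figure D3:**
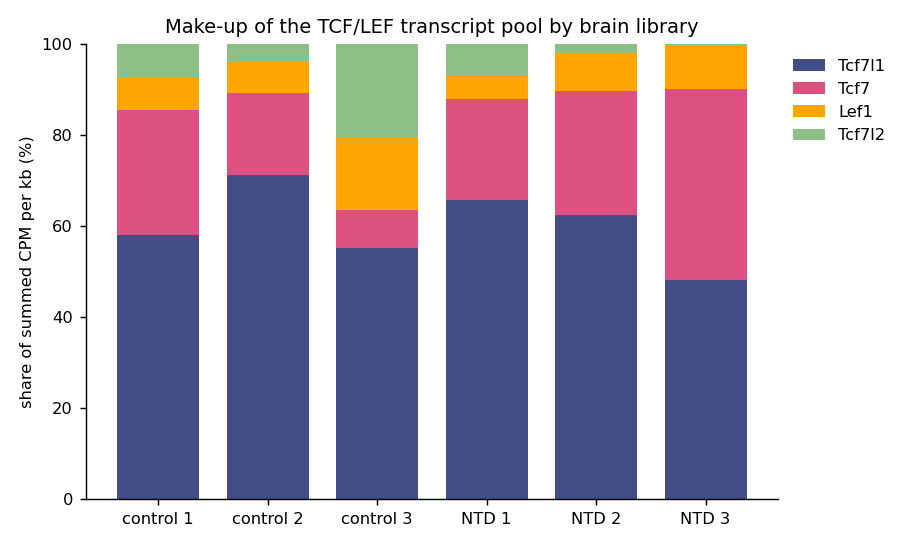
Share (%) of the summed TCF/LEF level, in CPM per kb of merged exons, held by Tcf7l1, Tcf7, Lef1 and Tcf7l2 in each brain library. Tcf7l1 is the largest share in all 6, from 48.2 to 71.3%.

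In control brain the order of mean levels per kb ran from Ctnnb1 at 370 ± 45.5 CPM per kb to Lrp6 at 0.656 ± 0.303 (SD, n = 3). Between them came Tcf7l1 (20.6 ± 5.17), Bcl9 (11.2 ± 5.19), Axin2 (10.6 ± 5.88), Axin1 (10.4 ± 2.01), Tcf7 (5.54 ± 1.85), Tcf7l2 (3.92 ± 4.00), Lef1 (3.55 ± 2.54) and Lrp5 (1.63 ± 0.272 CPM per kb). Neighbours in this order overlapped between libraries, except for Ctnnb1 with Tcf7l1, Axin1 with Tcf7 and Lrp5 with Lrp6. In NTD, Tcf7 stood at 15.0 ± 9.35 and Bcl9 at 4.65 ± 1.78 CPM per kb. Merged exons can be longer than the transcripts in use, which lowers the level of a gene with many isoforms.

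The 10 genes also differed in how far replicate libraries agreed. Within-group SDs of log2 CPM were low for Ctnnb1, Axin1 (0.300) and Tcf7l1 (0.304). They were above the median gene's for Lrp5 (0.590), Bcl9 (0.626), Tcf7 (0.722), Axin2 (0.778) and Lef1 (0.902). Tcf7l2 at 1.50 and Lrp6 at 1.93 lay above 93.9% and 96.3% of the 7775 genes. Control 3 was the highest library for 6 of the 10: Ctnnb1, Axin1, Axin2, Lef1, Tcf7l2 and Bcl9.

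The genes with profiles most like those of the feedback genes were found by Euclidean distance between log2 CPM profiles centred on their mean, over 6 libraries. For Axin2 they were Mtmr11 (0.318), Rbm14 (0.364), 2810004N23Rik (0.379), Rtn4 (0.387) and Extl3 (0.408), against a median distance of 2.60 to 11625 genes. For Lef1 they were Hhat (0.340), Mcam (0.389), Dqx1 (0.437), Glis2 (0.491) and Zfp945 (0.517), against a median of 2.78. All 5 neighbours of Axin2 were, like it, lowest in control 1, which follows from how they were chosen.

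Around the 10 genes, 77 of 98 listed genes of the Wnt pathway were tested in brain. Of these 0 were called higher and 1 lower, Ccnd1, where 0.998% of all tested genes were called lower. Their log2 fold changes were positive for 32 and negative for 45, with a median of -0.27. At an unadjusted p under 0.05 there were 10 of 77, against 15.0% of all tested genes. In 21 of 77 the groups did not overlap, against 24.5% of all tested genes. Of these, 5 lay with NTD above and 16 below, where over all tested genes 1438 lay above and 1408 below. Of the 5 above, Ascl2, Cdx2 and T belong to the target list and are named after their values were seen. Ascl2 stood at 0 to 0.0522 CPM in controls and 11.3 to 15.3 CPM in NTD, and Cdx2 at 0 in every control and 3.67 to 8.38 CPM in NTD. Ascl2 and Cdx2 are also known from trophoblast, and no such reading is given for T. None of the 3 was called higher in the main edgeR fit, and the part of cell types in their levels was not tested. Other settings did call genes of the Wnt lists higher. DESeq2 called 4, and edgeR called 1 with a stricter low-count filter and 1 without control 1 and NTD 3. Whether Ascl2, Cdx2 or T were among these is not given here.

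Ccnd1 (chromosome 7, 144929931 to 144939925, minus strand), the gene for cyclin D1 and a target of β-catenin in many cells, measured 369, 381 and 351 CPM in controls and 200, 118 and 166 CPM in NTD. No NTD library came near a control. The log2 fold change was -1.18 ± 0.24 (SE), with an edgeR adjusted p of 0.0355. DESeq2 and limma-voom kept the call, and leaving out any 1 library lost it (edgeR adjusted p of 0.0803 to 0.129), as did leaving out control 1 and NTD 3 together (0.0557). With 1 library left out, its log2 fold change stayed between -1.44 and -1.07. Summed neuron markers and summed neural progenitor markers were also lower in all NTD libraries than in any control, and their part in the level of Ccnd1 was not tested.

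Among 15 tested Wnt ligands (median log2 fold change -0.61), none passed. Wnt1, which is made in the dorsal midline of the midbrain and spinal cord, averaged 31.9 ± 3.51 CPM in controls and 17.1 ± 3.09 CPM in NTD (SD, n = 3 each, edgeR adjusted p = 0.520). The controls held 0, 0.0365 and 0.313 CPM of Wnt2, and the NTD libraries 5.08, 17.6 and 5.41 CPM. It did not pass in edgeR (adjusted p = 0.221) and passed in DESeq2 (adjusted p = 0.00208). The 2 ligand export genes had a median of -0.96, and Porcn, which acylates Wnt proteins, stood at 32.99 ± 7.25 and 16.97 ± 1.77 CPM in controls and NTD (edgeR adjusted p = 0.481). Wls, the carrier of acylated Wnt proteins, overlapped, at 10.3 ± 2.39 and 5.29 ± 4.92 CPM.

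Frizzled receptors (7 tested, median -0.67) included Fzd10, with 150, 132 and 216 CPM in controls and 35.5, 90.6 and 50.4 CPM in NTD. Its edgeR adjusted p was 0.0846, and DESeq2 called it (adjusted p = 0.00812). Fzd8 overlapped, at 45.7 ± 22.6 and 21.7 ± 16.9 CPM. R-spondins, Lgr receptors and turnover factors (7 tested) had a median of -0.75, with none called. Rspo3, an R-spondin that enhances Wnt signals, overlapped at 51.9 ± 16.3 and 30.9 ± 10.4 CPM. For Rspo4 the controls held 0, 1.17 and 0.939 CPM and the NTD libraries 0, 31.2 and 20.7 CPM.

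Extracellular antagonists (10 tested, median 0.37) and destruction complex genes with Dishevelled (14 tested, median 0.17) had medians above 0, and none was called. Sfrp1, a secreted Wnt-binding antagonist, overlapped at 43.9 ± 15.5 and 71.6 ± 14.5 CPM. Sostdc1, which binds LRP co-receptors, was at 21.8 ± 12.2 and 4.02 ± 3.52 CPM and did not overlap (edgeR adjusted p = 0.566). Apc2, a neuronal relative of the scaffold APC, stood at 52.5, 48.3 and 42.0 CPM in controls and 0, 8.07 and 5.83 CPM in NTD (edgeR adjusted p = 0.273). Dvl1, which relays the signal from Frizzled, was at 75.2 ± 20.7 and 41.0 ± 8.71 CPM (edgeR adjusted p = 0.303).

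Nuclear cofactors and corepressors (12 tested) had a median of -0.40. Pygo1, the BCL9 partner, averaged 96.8 ± 33.2 CPM in controls and 50.3 ± 17.9 CPM in NTD (edgeR adjusted p = 0.314). Tle1, a corepressor of TCF proteins, was high in control 1 alone, at 233 CPM, and between 19.3 and 35.2 CPM in the other 5 libraries. The 10 other target genes tested had a median of 0.38, with Ccnd1 the only call.

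**Figure D4:**
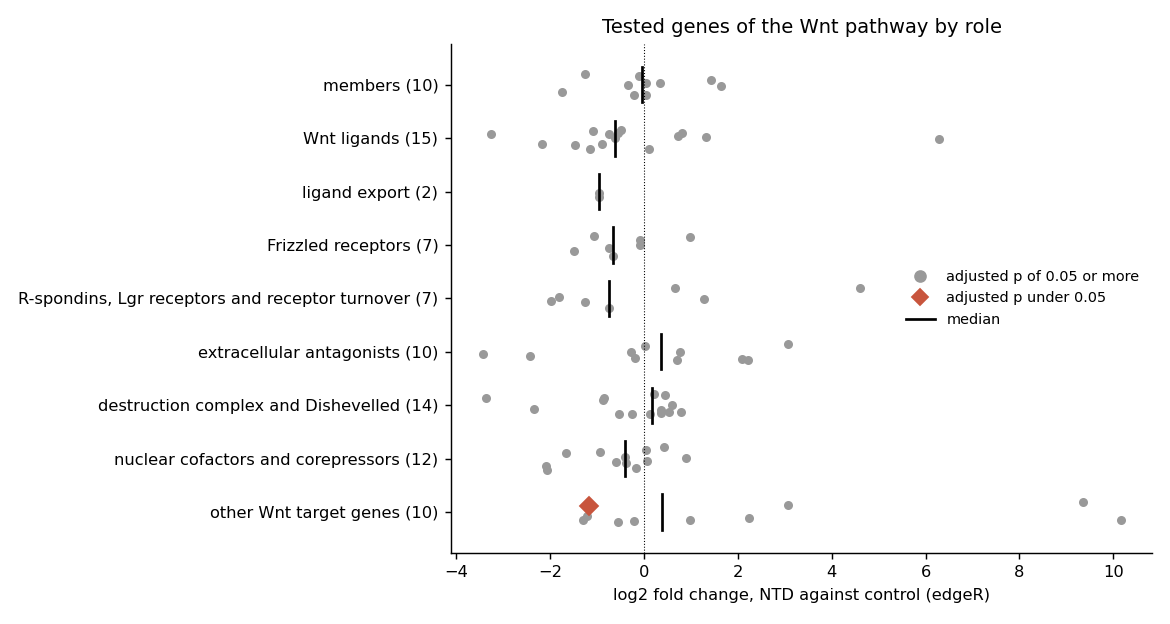
Log2 fold change, NTD over control brain (edgeR), of the 10 genes and of the tested genes in each Wnt list, number tested in brackets, with a bar at the list's median. Ccnd1 is the diamond, the single gene with an adjusted p under 0.05.

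In mESC there was 1 library per group, so no test was made, and the intervals below are exact binomial 95% intervals that cover counting error only. The identity of the cells was checked by 6 of 6 pluripotency genes, which were listed in both libraries. They summed to 1068 FPKM (fragments scaled to transcript length and library size) in FA4 and 1189 FPKM in FA0. Singly they went both ways, with FA0 to FA4 ratios of depth-scaled counts from 0.744 for Tdgf1 to 1.42 for Zfp42. Of 7 members with a mean of at least 5 FPKM, 1 moved by at least 2-fold on the log2(FPKM + 1) scale, which understates the change of low genes, against 1.24% of 6771 listed genes. The median difference of the members was -0.07.

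That member was Bcl9, at 2.33 FPKM in FA4 and 11.03 FPKM in FA0, a difference of 1.85 on the log2(FPKM + 1) scale. Its estimated counts were 77.9 and 148, and scaled by depth they gave a ratio of 1.42 (1.07 to 1.9) where FPKM gave 4.73. The transcript length implied by counts over FPKM was 0.301 times as long in FA0 as in FA4. Such a shift beyond 1.5-fold was found in 2.92% of 8582 genes, so the size for Bcl9 depends on which column is read.

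Axin2 went the other way, from 3.78 FPKM in FA4 to 1.31 FPKM in FA0. Its estimated counts of 62.8 and 41.0 gave a depth-scaled ratio of 0.488 (0.321 to 0.734), and its mean of 2.54 FPKM was under the minimum used for the count above. The implied length ratio was 1.41. Tcf7l1, a repressor of pluripotency genes in mESC, measured 28.9 FPKM in FA4 and 22.8 FPKM in FA0, with a count ratio of 0.808 (0.703 to 0.929). Lrp5 measured 27.4 and 21.3 FPKM (count ratio 0.791, 0.714 to 0.876), and Lrp6 21.9 and 24.4 FPKM (count ratio 1.12, 1.03 to 1.21). The co-receptors thus stood on opposite sides of 1.

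Ctnnb1 was again the highest, at 299 FPKM in FA4 and 281 FPKM in FA0, with a count ratio of 0.960 (0.926 to 0.996). Axin1 measured 19.9 and 18.9 FPKM (count ratio 0.955, 0.828 to 1.10). Tcf7l2 measured 5.85 and 6.26 FPKM (count ratio 1.16, 0.879 to 1.53). For Axin1 and Tcf7l2 the counting interval included 1. With 1 library per group, an interval that leaves out 1 does not show a difference between the media either. The intervals also take the depth ratio as free of error.

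**Figure D5:**
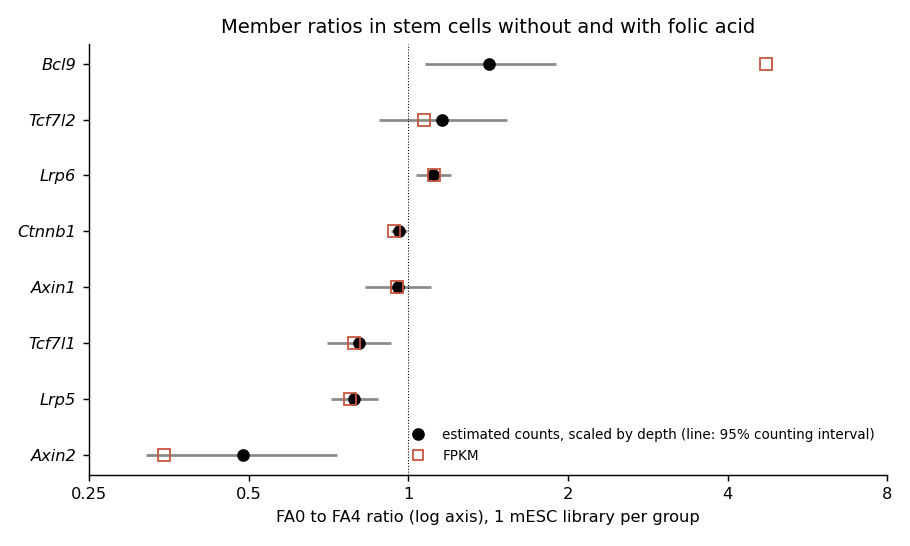
Ratio of FA0 to FA4 on a log axis for the 8 members listed in mESC, from depth-scaled estimated counts (circles, with 95% counting intervals) and from FPKM (squares), 1 library per group. Circle and square lie far apart for Bcl9 (1.42 and 4.73).

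Among the other listed Wnt genes in mESC, the one with the widest difference in each list was read by rule. Bcl9l, a relative of Bcl9, was at -0.87 on the log2(FPKM + 1) scale. Its count ratio of 0.809 had an interval of 0.644 to 1.02, which includes 1, and its implied length ratio was 1.65. Csnk1d, a casein kinase, was at -0.40, Fzd5 at -0.33, Ccnd1 at -0.30, the R-spondin receptor Lgr4 at -0.19 and Kremen1, a receptor for DKK proteins, at 0.09. For Ccnd1 the FPKM were 14.3 and 11.4, with a count ratio of 0.801 (0.680 to 0.942).

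The mESC table also carries values of a second assay, not named in the labels, once per peak. There were 29 peak entries for the 8 listed members, and in the authors' deposited table a total of 18 had a lower log2 value in the folate-free case than in the control, as did 15344 of all 23040 entries. The authors' deposited table put 8 of the 29 at a difference of -1 or less, where 42.6% of 23040 entries lie, and 5 at 1 or more, where 21.4% lie. The median difference was -0.36 for the members and -0.76 for all entries of the authors' deposited table. By member, the differences in the authors' deposited table ran from -1.55 to 1.70 over 7 entries of Lrp6 and from -1.11 to -0.63 over both entries of Axin2, and the 1 entry of Tcf7l2 was at -3.70. The widest positive differences in the authors' deposited table were 7.75 for an entry of Axin1 and 7.32 for an entry of Ctnnb1, where the control value was -5.28 and -4.12. These values have no replicates, and the authors' p-values for them were not used, so their error is not given here.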

How the data were processed

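Samples were grouped by their labels. Ribosomal RNA had been removed before library preparation with a low input kit, and read pairs were 150 bp long, per the labels' protocols. The submitters' processing notes name build mm10 and the tools cutadapt 1.9.3, HISAT2 2.0.4, edgeR and HTSeq 0.9.1. Neither the annotation nor the strand setting is given in the sources used here, so reads of a gene and its antisense partner may not be separated. Per the file headers, the authors deposited brain values as read counts, 1 value per gene and library. For mESC the authors deposited estimated counts, FPKM values and, per peak, log2 values; their deposited p-values were not used. The authors' 8 further columns, normalized values for brain and group means for mESC, were not used. Symbols Aes and Tle5 name 1 gene.

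The brain test was edgeR 4.0.16's quasi-likelihood F-test (robust, TMM scaling, filterByExpr with 11626 genes kept, Benjamini-Hochberg over all) with DESeq2 1.42.0 and limma 3.58.1 as alternatives. CPM values use TMM sizes; prior count 2 for log2 CPM. Ratios within libraries were tested by exact permutation. In mESC, FPKM were compared as log2(FPKM + 1), and estimated counts, rounded, were scaled by a depth ratio of 1.334 from genes over 20 FPKM. Totals of listed counts were 3901966 (FA4) and 5247130 (FA0).

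All 10 members were named; in each Wnt list, genes at an adjusted p under 0.05 or otherwise the 2 with the smallest p were named, and in mESC the widest difference per list at a mean of at least 5 FPKM. The members and lists were chosen with earlier results of these data known. Same-numbered control and NTD libraries did not deviate together, so the numbers were not used as pairs. Alternatives were other scalings and filters, both libraries that stood apart left out, and each library left out.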

Additional observations from a re-analysis of the deposited data

How the results depend on the processing

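Of 140 values of the 10 members under alternative settings, 120 kept their direction and 20 reversed, in Axin2, Lef1, Lrp5 and Lrp6; 0 of 10 members was called in any of the 14 settings. Reversed log2 fold changes were, with limma-voom, 0.062 for Axin2, -0.14 for Lrp5 and -0.22 for Lrp6. With library totals alone they were -0.038 for Lef1 and -0.052 for Lrp5, and without control 1 and NTD 3 they were -0.74 for Lef1, -0.014 for Lrp5 and -0.41 for Lrp6. With 1 library left out the values ran from -0.51 to 0.18 for Axin2, -0.55 to 0.81 for Lef1, -0.24 to 0.31 for Lrp5 and -0.88 to 2.15 for Lrp6. The within-library log2 ratios ran from -0.21 to 0.63 for Axin2 to Axin1, -0.58 to 0.21 for Lef1 to Tcf7l1 and -1.88 to 0.79 for Lrp5 to Lrp6. DESeq2 called 780 genes higher and 511 lower among all genes, and 4 higher and 2 lower in the Wnt lists. Leaving out 1 library gave 33 to 225 higher and 17 to 78 lower among all genes and 0 to 0 lower in the Wnt lists. A stricter low-count filter gave 1 Wnt gene higher, as did leaving out control 1 and NTD 3, which gave 0 lower. In mESC the members past 2-fold were 2 at a minimum of 1 FPKM, 0 at 10 FPKM and 0 by count ratio. The cause of each change was not tested. Same-numbered libraries had deviations correlated at -0.02, 0.09 and 0.03, and with the replicate block 132 genes were higher and 73 lower, 0 Wnt genes were lower (Ccnd1 at -1.22, edgeR adjusted p = 0.0627), Axin2 was at 0.074 and Lrp5 at -0.056.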

Other observations

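In mESC the members of the Wnt target list were read beside Axin2, and are named after their values were seen. Myc, a target of β-catenin in several tissues, had estimated counts of 63 in FA4 and 41 in FA0, a depth-scaled ratio of 0.488 (exact binomial 95% interval 0.321 to 0.734). Ascl2, an intestinal stem cell and trophoblast factor, had 27 and 19 counts, a ratio of 0.527 (0.277 to 0.984). The means of Myc (4.08 FPKM), Ascl2 (2.35 FPKM) and Axin2 were under the minimum of 5 FPKM used elsewhere. Only 3 of the 12 genes of the target list were listed in mESC. These, which include Ccnd1, and Axin2 were lower in FA0, in 1 library per group and with counting error only. Of 6771 listed genes at or over that minimum, 3393 were lower in FA0. This share leaves out genes under the minimum, so of these genes it is a background for Ccnd1 only. Genes outside the target list with means under the minimum went both ways. Their depth-scaled count ratios included 0.478 for Pdgfra and 0.670 for Nes, and 1.69 for Wnt7b and 1.87 for Sfrp4. A lower value in FA0 was thus not particular to the Wnt targets.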
